A study of Homo sapiens with 2 samples.

Results

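The genes described here are 143 human genes that carry a LINC symbol with 5 digits, other than LINC01235 itself. They were selected on their summed raw count, at least 100 over both libraries, so that their abundance was fixed by the choice and is given as a description only. The table holds 2286 gene IDs with such a symbol, of which 1407 had 0 counts in both libraries and 735 had 1 to 99 counts. The members are thus 143 of the 62699 genes listed in the table, and 1.06% of the 13513 genes that reached the same minimum. Many listed genes had 0 counts, since 27088 were detected in ASO-1235 cells and 26353 in ASO-NC cells. At the boundary, LINC02795 with 53 counts in ASO-1235 cells and 47 in ASO-NC cells was the last gene inside, with LINC01424 (54 in ASO-1235 cells and 47 in ASO-NC cells) next to it. Just outside were LINC00624, with 47 counts in ASO-1235 cells and 50 in ASO-NC cells, and LINC01213, with 56 counts in ASO-1235 cells and 40 in ASO-NC cells.

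Polyadenylated RNA was sequenced from HCC1954 cells, an established HER2-positive breast cancer line, in 2 libraries. One library carries the genotype label ASO-1235, although its title has the prefix Si, and the other the label ASO-NC. The series title names LINC01235 as the RNA under study. ASO is the usual abbreviation of antisense oligonucleotide, a short nucleic acid that pairs with a chosen RNA and can direct its cleavage by RNase H. Dose, time and oligonucleotide sequence are not stated in the labels, nor whether the libraries came from separate cultures. With 1 library per group no difference has a replicate check, and no test was possible. The total count was 37916307 in ASO-1235 cells and 48092494 in ASO-NC cells. The epithelial and HER2 markers ERBB2, GRB7, EPCAM, KRT8, KRT18, KRT19 and CDH1 were all above 100 CPM (counts scaled to a library of common size) in both libraries. Of 16 markers of leukocytes, fibroblasts, endothelium and adipocytes, 12 were below 1 CPM in both libraries, with PDGFRB at 0 counts in both. The other 4 were COL1A1, with 39.9 CPM in ASO-1235 cells and 44.3 CPM in ASO-NC cells, and VWF, PLIN1 and LYZ, each between 1.13 and 7.39 CPM in both.

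LINC symbols are given to long non-coding RNAs whose genes were placed between protein-coding genes when they were named. Most such RNAs are spliced, capped and polyadenylated like mRNAs, but are expressed at lower levels and often in few cell types. Some act on neighbouring genes, some act elsewhere in the nucleus or cytoplasm, a few encode short peptides, and for most no role is known. They form the class to which LINC01235 belongs, and so give a background against which its loss can be set.

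Of the members, 100 had an entry in the promoter table of RefSeq (GRCh38.p14), which runs from 250 bases before to 50 bases after the annotated start. The promoters of LINC02035 and LINC03009 are shown because both genes were at least 2-fold higher in ASO-1235 cells, and those of LINC01278 and LINC00665 because they were the most abundant members in ASO-NC cells and differed little. Capitals mark matches, on either strand, to the TATA box TATAAA, the GC box GGGCGG, the E-box CACGTG, the cAMP response element TGACGTCA or the AP-1 element TGANTCA. The windows lie at chr3:122886263-122886562 (plus strand), chr7:76549091-76549390 (plus), chrX:63561046-63561345 (minus) and chr19:36331669-36331968 (minus), and are written 5′ to 3′ in the direction of transcription.
LINC02035: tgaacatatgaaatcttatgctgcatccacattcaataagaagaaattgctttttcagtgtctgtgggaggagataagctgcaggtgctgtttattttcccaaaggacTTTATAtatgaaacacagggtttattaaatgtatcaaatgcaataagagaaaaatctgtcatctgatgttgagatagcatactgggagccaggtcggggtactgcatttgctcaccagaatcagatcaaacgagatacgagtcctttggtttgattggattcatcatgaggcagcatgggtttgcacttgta
LINC03009: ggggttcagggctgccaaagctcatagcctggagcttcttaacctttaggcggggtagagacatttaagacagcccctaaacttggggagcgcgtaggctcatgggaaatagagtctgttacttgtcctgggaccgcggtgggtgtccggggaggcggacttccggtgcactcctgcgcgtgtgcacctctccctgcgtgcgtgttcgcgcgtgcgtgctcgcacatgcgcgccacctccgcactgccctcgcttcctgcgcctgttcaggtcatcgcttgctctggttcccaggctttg
LINC01278: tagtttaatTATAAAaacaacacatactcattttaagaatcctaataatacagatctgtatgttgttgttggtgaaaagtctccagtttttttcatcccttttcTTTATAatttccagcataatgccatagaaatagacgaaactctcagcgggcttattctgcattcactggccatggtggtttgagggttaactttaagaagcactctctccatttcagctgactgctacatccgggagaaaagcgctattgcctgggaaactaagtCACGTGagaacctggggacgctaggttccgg
LINC00665: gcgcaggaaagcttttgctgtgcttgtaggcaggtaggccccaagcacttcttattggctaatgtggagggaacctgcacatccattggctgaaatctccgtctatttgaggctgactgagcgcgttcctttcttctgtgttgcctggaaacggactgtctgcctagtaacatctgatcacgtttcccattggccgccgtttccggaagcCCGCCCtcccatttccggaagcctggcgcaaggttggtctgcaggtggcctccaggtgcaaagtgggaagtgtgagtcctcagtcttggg

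The GC content of these windows was 39.3% for LINC02035, 61.7% for LINC03009, 40.3% for LINC01278 and 55.3% for LINC00665. LINC02035 held 1 match to TATAAA, at position −142 from the start, and LINC03009 held no match to any of the 5 motifs. LINC01278 held TATAAA at −241 and at −146 and the E-box at 20, and LINC00665 held the GC box at −40. The higher pair thus shared none of these motifs. Over the 100 member promoters, the TATA box occurred in 10 and the GC box in 47, against 12.0% and 44.6% of all 27305 promoters in the table. The E-box occurred in 8 member promoters (7.43% of all promoters), the cAMP response element in 5 (1.98% of all) and the AP-1 element in 14 (7.76% of all). No 2 of these motifs are contained in each other, and these are matches of letters, not sites of binding.

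LINC01235 (ENSG00000270547.6, chr9:13406380-13433053, minus strand, GRCh38) had 0 counts in ASO-1235 cells, against 1337 counts (28.6 CPM) in ASO-NC cells. With 3 counts set in place of the 0, which corresponds to 0.0768 CPM, it was 373-fold lower in ASO-1235 cells. That floor is not the bound of the exact 95% interval, which allowed a ratio of up to 0.00330, and of up to 0.00662 on halved counts. No member behaved in this way. All 143 members had counts in both libraries, and the lowest ratio among them was that of LINC02918, 0.617, which is 1.62-fold lower. Among the 13513 genes with at least 100 counts, LINC01235 was the single gene at 0 in ASO-1235 cells, and 0 genes were at 0 in ASO-NC cells. Of the 12166 genes with at least 100 counts in ASO-NC cells, the gene with the next lowest ratio was ATP5ME, an ATP synthase subunit gene, with 42 counts in ASO-1235 cells and 136 in ASO-NC cells. Of the 6770 with at least 1000 counts there, it was the interferon-induced IFI44L, with 807 counts in ASO-1235 cells and 1819 in ASO-NC cells.

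**Figure D1:**
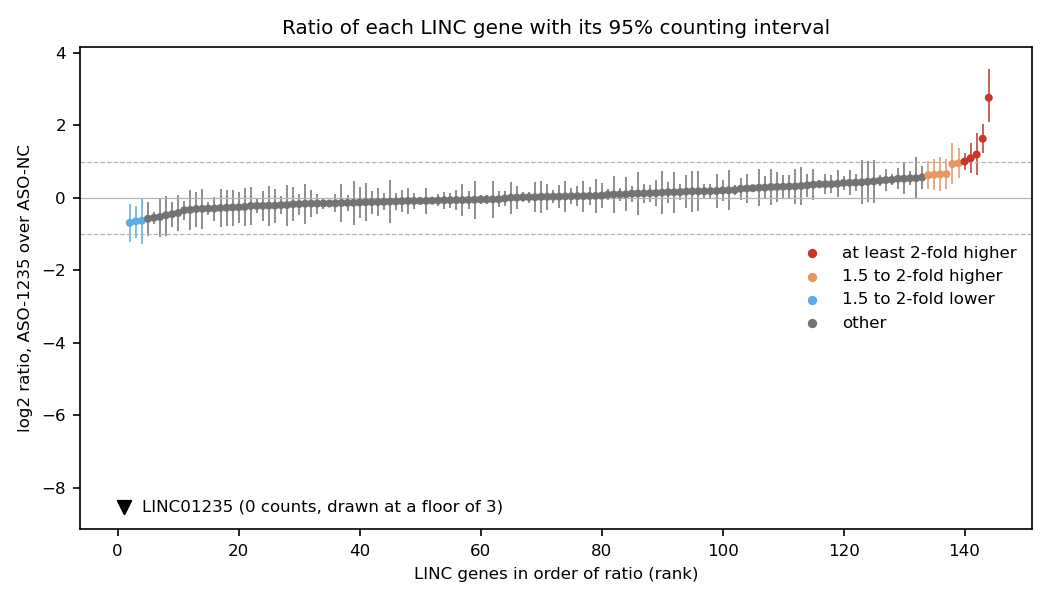
Log2 ratio of ASO-1235 over ASO-NC for each of the 143 LINC genes, ranked on the x axis, with vertical lines for the exact 95% counting intervals and dashed lines at 2-fold. All members lie between log2 ratios of −0.69 and 2.76, while LINC01235, drawn at a floor of 3 counts, lies at −8.54.

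Ratios are ASO-1235 over ASO-NC, computed on libraries scaled with TMM, and each 95% interval is exact (Clopper-Pearson) for the counts as deposited. Counting error is the sole error in these intervals, and they would be wider had each read pair been counted through both mates, so the interval on halved counts is given where it alters a call. A gene was called when it passed the stated fold and its interval excluded 1.

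As a class the members had a median ratio near 1, with more intervals above 1 than below. Their median log2 ratio was 0.03, against −0.0066 over all genes with the same minimum. The middle 90% of members lay between −0.45 and 0.65, against −0.46 and 0.56 for all genes. A ratio within 1.5-fold was found for 129 of 143 members (90.2%), against 93.1% of all genes. Ratios above 1 numbered 80 (55.9%, against 49.0% of all genes) and ratios below 1 numbered 63. The interval included 1 for 102 members (71.3%), against 39.8% of all genes, whose higher counts give narrower intervals. It lay above 1 for 28 members (19.6%) and below 1 for 13 (9.09%), against 29.3% and 30.9% of all genes. On halved counts 22 members lay above and 4 below, against 3078 and 3264 of all 13513 genes. Summed over the members, the level was 1030 CPM in ASO-1235 cells and 986 CPM in ASO-NC cells. These counts were 0.106% of the total in ASO-1235 cells and 0.0957% in ASO-NC cells.

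At 2-fold, 5 members were higher and 0 lower in ASO-1235 cells. In the background of all genes with at least 100 counts, 1.18% were called higher and 0.200% lower, beside the 3.50% of members called higher. The members called were mostly of low count. Of the 5, 4 had under 300 summed counts, where the members numbered 78 and where 5.01% of all genes were called higher and 1.11% lower, so that 4 of 78 was near the background. The fifth was among the 47 members with 300 to under 1000 counts, where 1.16% of all genes were called higher and 0.0387% lower. Of the 18 members with 1000 or more counts, 0 were called, against 0.184% of all genes higher and 0.0115% lower in that range, where the lower gene was LINC01235. At 1.5-fold, 11 members (7.69%) were higher and 3 (2.10%) lower, against 4.59% and 2.32% of all genes.

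**Figure D2:**
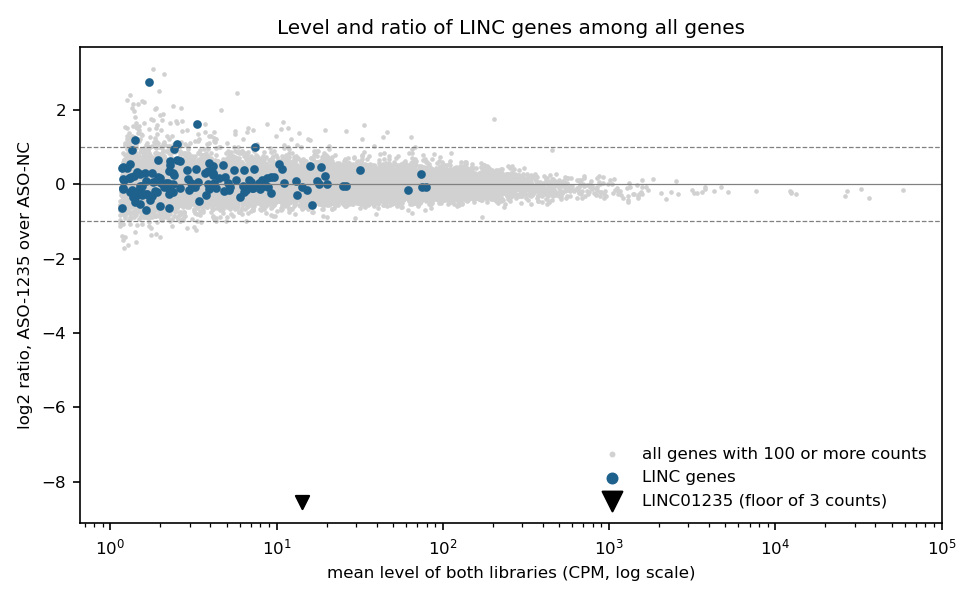
Mean level of both libraries in CPM (log scale) against the log2 ratio of ASO-1235 over ASO-NC, for all 13513 genes with at least 100 counts (grey), the 143 LINC genes (blue) and LINC01235 (black triangle, at a floor of 3 counts). LINC genes sit at the low end of the range of levels and share the spread of other genes of that level, which LINC01235 does not.

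The spread narrowed as counts rose. The SD of the log2 ratio was 0.53 over members with under 300 counts, 0.27 over those with 300 to under 1000 and 0.26 over those with 1000 or more. Over all genes with counts in both libraries, the SDs in the same ranges were 0.54, 0.36 and 0.25. In the range of 1000 or more counts, in which LINC01235 falls by its summed count, the members' log2 ratios ran from −0.55 to 0.50.

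LINC02067 had the highest ratio, with 116 counts in ASO-1235 cells and 20 in ASO-NC cells, a ratio of 6.94 (4.29 to 11.8). Its gene (chr3:161426427-161448242, plus strand) overlaps a ribosomal protein pseudogene, RPL23AP42, and a further non-coding gene. The overlap is one of whole gene spans, and whether exons are shared was not tested. Without a stated strand setting, reads from any shared stretch cannot be assigned to a gene with certainty. LINC01376 followed with 195 counts in ASO-1235 cells and 75 in ASO-NC cells, a ratio of 3.11 (2.37 to 4.11). Its gene lies at chr2:18986451-19348067 on the minus strand, and its longest transcript has 8 exons. These were the members past 3-fold. LINC03009, for which RefSeq gives a promoter on chromosome 7, had 77 counts in ASO-1235 cells and 40 in ASO-NC cells, a ratio of 2.30 (1.55 to 3.46). LINC01503, known in squamous cancers as an RNA under the control of a super-enhancer, had 134 counts in ASO-1235 cells and 75 in ASO-NC cells, a ratio of 2.14 (1.60 to 2.87). LINC02035 was the most abundant of the called genes, with 387 counts in ASO-1235 cells and 231 in ASO-NC cells. Its ratio of 2.0033 (1.70 to 2.37) sat on the threshold and was below 2 with DESeq2, upper-quartile and all-gene TMM scaling, but not with total-count scaling. All 5 kept an interval above 1 on halved counts, where the lowest bound was 1.31, that of LINC03009.

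The nearest protein-coding genes with at least 100 counts differed less. SPTSSB, a subunit gene of serine palmitoyltransferase 53.5 kb from LINC02067, had 4391 counts in ASO-1235 cells and 4073 in ASO-NC cells, a ratio of 1.29 (1.24 to 1.35). TTC32, 554 kb from LINC01376, had a ratio of 1.36 (1.16 to 1.59). IER5L, 154 kb from LINC01503, and SLC49A4, 92.1 kb from LINC02035, had ratios of 0.947 (0.877 to 1.02) and 1.07 (0.959 to 1.20). All 4 neighbours lay under 1.5-fold.

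Another 6 members were between 1.5-fold and 2-fold higher. LINC00458, known from embryonic stem cells, had 125 counts in ASO-1235 cells and 77 in ASO-NC cells, a ratio of 1.94 (1.45 to 2.61). LINC03044 had 69 counts in ASO-1235 cells and 43 in ASO-NC cells, a ratio of 1.92 (1.29 to 2.88). The others, LINC02814, LINC01311, LINC02894 and LINC00939, had ratios from 1.54 to 1.58. On halved counts LINC01311 lost its call (0.991 to 2.51), and the other 5 did not.

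Lower members were few and close to the limit. LINC02918 had 49 counts in ASO-1235 cells and 95 in ASO-NC cells, a ratio of 0.617 (0.428 to 0.880). LINC01224 had 68 counts in ASO-1235 cells and 128 in ASO-NC cells, a ratio of 0.635 (0.466 to 0.859). LINC01637 had 36 counts in ASO-1235 cells and 67 in ASO-NC cells, a ratio of 0.643 (0.416 to 0.977). On halved counts only LINC01224 kept an interval below 1 (0.406 to 0.978), while those of LINC02918 (0.363 to 1.02) and LINC01637 (0.341 to 1.17) included it. LINC01637 lies 8.02 kb from the start of AIFM3, which had 63 counts in ASO-1235 cells and 144 in ASO-NC cells, a ratio of 0.523 (0.383 to 0.708). By contrast ZNF91, 20.5 kb from LINC01224, was higher in ASO-1235 cells, with 2321 counts against 2220 in ASO-NC cells. Its ratio was 1.25 (1.18 to 1.33). The lower members of high count were nearer to 1. LINC02593, with 519 counts in ASO-1235 cells and 910 in ASO-NC cells, was at 0.682 (0.611 to 0.760), under 1.5-fold, and LINC02747, with 462 counts in ASO-1235 cells and 679 in ASO-NC cells, was at 0.814 (0.721 to 0.917).

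The 5 most abundant members took 31.5% of the summed member counts in ASO-1235 cells and 32.3% in ASO-NC cells. By its level in ASO-NC cells, LINC01235 was itself among the abundant RNAs of the class, since 4 members stood above it. LINC01278 had 77.3 CPM in ASO-1235 cells and 82.1 CPM in ASO-NC cells, a ratio of 0.942 (0.898 to 0.988). LINC00665, which in triple-negative breast cancer was described as the source of a short peptide, had 72.8 CPM in ASO-1235 cells and 77.0 CPM in ASO-NC cells, a ratio of 0.946 (0.901 to 0.994). On halved counts both intervals included 1, with upper bounds of 1.01. LINC00963, first described in prostate cancer, had 80.2 CPM in ASO-1235 cells and 66.8 CPM in ASO-NC cells, a ratio of 1.20 (1.14 to 1.26), and so stood at the top of the class in ASO-1235 cells. LINC01128 had 58.2 CPM in ASO-1235 cells and 64.9 CPM in ASO-NC cells, a ratio of 0.897 (0.849 to 0.947). These 4 exceeded LINC01235 in ASO-NC cells and differed between the libraries by at most 1.20-fold.

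The next members by mean level were close to LINC01235 in ASO-NC cells. LINC00641 had 36.1 CPM in ASO-1235 cells and 27.8 CPM in ASO-NC cells, a ratio of 1.30 (1.20 to 1.40). LINC00342 had 25.7 CPM in ASO-1235 cells and 26.6 CPM in ASO-NC cells, and LINC00174 had 24.8 CPM in ASO-1235 cells and 25.6 CPM in ASO-NC cells. Both had ratios of 0.968, with intervals that included 1. The remaining 5 of the 12 most abundant, LINC02984, LINC02967, LINC02604, LINC00662 and LINC03072, had 15.5 to 20.1 CPM in ASO-NC cells. Among these LINC02604 had the highest ratio, 1.39 (1.25 to 1.53), and LINC02984 the lowest, 1.01 (0.918 to 1.11). Per kilobase of the longest transcript, LINC01235 had 12.3 CPM in ASO-NC cells, and 8 of the 135 members with a known length stood above it. The highest was LINC02343, with 25.3 CPM per kilobase in ASO-1235 cells and 28.2 in ASO-NC cells. LINC00665 followed with 26.7 CPM per kilobase in ASO-1235 cells and 28.2 in ASO-NC cells, and LINC02233, the shortest member, had 23.7 in ASO-1235 cells and 24.0 in ASO-NC cells. The other 5 were LINC02672, LINC01278, LINC02967, LINC01621 and LINC00992, and the ratios of all 8 lay between 0.896 and 1.16.

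Further members had intervals that excluded 1 although their ratios stayed under 1.5-fold. LINC01963 had 18.7 CPM in ASO-1235 cells and 13.2 CPM in ASO-NC cells, a ratio of 1.41 (1.27 to 1.57). LINC01550 had 477 counts in ASO-1235 cells and 393 in ASO-NC cells, a ratio of 1.45 (1.27 to 1.66). LINC00863 had 482 counts in ASO-1235 cells and 434 in ASO-NC cells, a ratio of 1.33 (1.16 to 1.52), and its gene overlaps the coding gene NUTM2D. LINC02381, whose gene overlaps SMUG1, a uracil-DNA glycosylase gene, had 183 counts in ASO-1235 cells and 148 in ASO-NC cells, a ratio of 1.48 (1.18 to 1.85), while SMUG1 had a ratio of 0.922. LINC00997 had 189 counts in ASO-1235 cells and 161 in ASO-NC cells, a ratio of 1.40 (1.13 to 1.74). All 5 were higher in ASO-1235 cells on halved counts too, with lower bounds of 1.03 or more. Other members of this kind were lower in ASO-1235 cells. LINC01002 had 208 counts in ASO-1235 cells and 316 in ASO-NC cells, a ratio of 0.787 (0.658 to 0.941). LINC00847 had 113 counts in ASO-1235 cells and 185 in ASO-NC cells, a ratio of 0.730 (0.573 to 0.928). LINC01876, with a ratio of 0.856 (0.742 to 0.987), and LINC01252, with 0.668 (0.481 to 0.919), were lower as well. On halved counts the intervals of these 4 included 1.

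**Figure D3:**
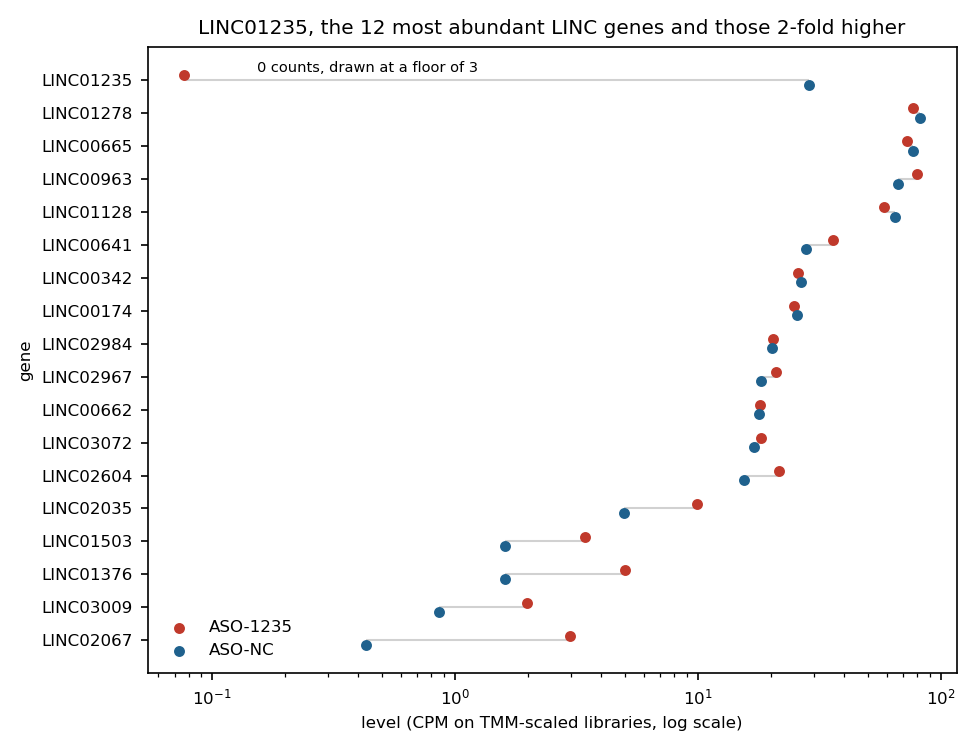
Level in CPM on a log scale in ASO-1235 cells (red) and ASO-NC cells (blue) for LINC01235, the 12 most abundant LINC genes and the 5 that were at least 2-fold higher, 1 library per group. The points of LINC01235 are separated by most of the axis, whereas the 12 abundant genes have nearly coincident points and the 5 higher genes lie below 10 CPM in both libraries.

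Of 45 LINC genes that have been reported in breast cancer studies, 17 were members. Of these 17, 0 were called at 1.5-fold, which with 4.59% of all genes called higher and 2.32% lower is near the background. Their median log2 ratio was 0.04, and 11 of 17 had ratios above 1, against 49.0% of all genes. The highest was LINC01133, described as a modulator of invasion in several cancers, with 218 counts in ASO-1235 cells and 181 in ASO-NC cells, a ratio of 1.44 (1.18 to 1.76). LINC00467, reported to encode a peptide of the mitochondrial ATP synthase, had 244 counts in ASO-1235 cells and 225 in ASO-NC cells, a ratio of 1.30 (1.08 to 1.56), and LINC00472, reported as a suppressor in breast cancer, had a ratio of 1.27 (1.02 to 1.59). On halved counts the intervals of LINC00467 and LINC00472 included 1. LINC01016, a known target of the oestrogen receptor, had 83 counts in ASO-1235 cells and 99 in ASO-NC cells, and the interval of its ratio was 0.740 to 1.36. LINC01089, known in mammary cells as an RNA repressed by EGF, had 266 counts in ASO-1235 cells and 342 in ASO-NC cells, a ratio of 0.930 (0.789 to 1.09). The EZH2-associated LINC00511 had 50 counts in ASO-1235 cells and 67 in ASO-NC cells, a ratio of 0.892 (0.606 to 1.31). LINC00461, host of a miR-9 precursor, had the lowest ratio of the list, 0.859 (0.587 to 1.25). The others were LINC00115, LINC00339, LINC00662, LINC00665, LINC00885, LINC00899, LINC00963, LINC00993, LINC01087 and LINC00641, with ratios from 0.870 to 1.30.

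Long non-coding RNAs with other names were likewise close in both libraries. Of 39 such RNAs listed, 21 had at least 100 counts, and 0 were called 1.5-fold higher or lower, again near the 4.59% and 2.32% of all genes. Their median log2 ratio was 0.06 and the lowest ratio 0.779, that of UCA1. NEAT1, the scaffold of nuclear paraspeckles, had 437 CPM in ASO-1235 cells and 495 CPM in ASO-NC cells, a ratio of 0.882 (0.865 to 0.900). NORAD, which binds Pumilio proteins, had 448 CPM in ASO-1235 cells and 430 CPM in ASO-NC cells, a ratio of 1.04 (1.02 to 1.06). TUG1 and the snoRNA host GAS5 had ratios of 1.04 and 1.12, OIP5-AS1 had 1.16 and HOTAIR, an RNA of the HOXC cluster, had 745 counts in ASO-1235 cells and 1114 in ASO-NC cells, a ratio with the interval 0.728 to 0.878.

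In GENCODE 29 on GRCh38, 135 members were found by Ensembl ID, and LINC03009 was among the 8 that were not. The type lincRNA was given to 111 of them, processed transcript to 13 and antisense to 7. Their longest transcripts ran from 358 to 9730 nucleotides with a median of 2333, against 3811 for the 11867 protein-coding genes with the same minimum. The exon number, taken from this longest transcript alone, had a median of 3 and was 1 for 26 members. Among these was LINC00511, with 106 annotated transcripts, so that 1 exon here does not mean an unspliced gene. The longest, LINC00938 with 9730 nucleotides, had 530 counts in ASO-1235 cells and 594 in ASO-NC cells, a ratio of 1.07 (0.947 to 1.20). LINC02233 with 358 nucleotides had 331 counts in ASO-1235 cells and 401 in ASO-NC cells, a ratio of 0.987 (0.851 to 1.14), and LINC00265 with 12 exons had 205 counts in ASO-1235 cells and 213 in ASO-NC cells, a ratio of 1.15 (0.945 to 1.40). The intervals of these 3 genes all included 1. Over the 135 members, Spearman's rho between the log2 ratio and length was 0.10, and exon number was not set against the ratio. LINC01235 is close to the middle of the class in this regard, with 2328 nucleotides and 3 exons. Although the symbol stands for an intergenic gene, 69 of the 135 overlapped another annotated gene on either strand, among them 17 that overlapped a protein-coding gene. LINC01278 overlaps SPIN4, and LINC01128 overlaps LINC00115, which is also a member. Overlap was taken over whole gene spans, introns included, and whether these pairs share exons, and so reads, was not tested. For 5 members (LINC00339, LINC00623, LINC01001, LINC01089 and LINC01123) at least 50% of the longest transcript matched that of another gene at 98% identity or more, so that their counts are uncertain. None of these 5 was called.

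Members lay on 23 chromosomes, with 20 on chromosome 1. On chromosome 9, which carries LINC01235, 4 members were found, all on the other arm of the chromosome and at least 98.6 Mb away. They were LINC02977, LINC02913, LINC01503 and LINC00963, with ratios from 1.20 to 2.14, of which the intervals of LINC02977 (0.987 to 2.16) and LINC02913 (0.901 to 1.59) included 1. None of these 4 shared the loss of LINC01235, but at such distances they cannot show whether a loss was shared near its locus.

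The ratios of members and of their neighbours on the chromosome were weakly related. Over the 135 placed members, the correlation of the log2 ratio with that of the nearest protein-coding gene with at least 100 counts was r = 0.11 (Spearman's rho = 0.05), and 68 pairs lay on the same side of 1. With the start of the neighbour within 2 kb there were 12 pairs, with r = 0.50 and rho = 0.57, and 6 pairs lay on the same side of 1. Some of these 12 were pairs of overlapping genes. At 2 to 50 kb (36 pairs) r was 0.22 (rho = 0.09), and beyond 50 kb (87 pairs) it was 0.03 (rho = −0.02). Within 50 kb, 30 pairs had a LINC gene that overlapped no annotated gene and had no near-identical copy. Over these 30 pairs, r was 0.14 and rho 0.11. These are descriptions across genes, all from the same pair of libraries, and genes are not replicates. Of the members, 10 faced away from a coding gene across at most 2 kb. LINC02918 starts 0.388 kb from IPO13, an importin gene, whose ratio was 0.846 (0.780 to 0.918). LINC01004 starts 1.14 kb from KMT2E, where the ratios were 1.30 (1.09 to 1.54) for the LINC gene and 1.17 (1.13 to 1.22) for KMT2E. LINC00205 starts 0.152 kb from POFUT2, an O-fucosyltransferase gene, and the pair had ratios of 0.950 and 0.960. Not all such pairs lay on the same side of 1. LINC01521 had a ratio of 1.09 (0.907 to 1.30), while PATZ1, 0.545 kb away, had 0.911 (0.880 to 0.943). Of the 10, 8 were within 1.5-fold, against 90.2% of all members and 93.1% of all genes. Farther apart, a neighbour could differ more than the member. LEKR1, 8.42 kb from LINC00886, had 161 counts in ASO-1235 cells and 59 in ASO-NC cells, a ratio of 3.26 (2.41 to 4.48), while LINC00886 had 327 counts in ASO-1235 cells and 292 in ASO-NC cells, a ratio of 1.34 (1.14 to 1.57). TXNIP, a glucose-responsive gene 56.0 kb from LINC01719, had 23111 counts in ASO-1235 cells and 14698 in ASO-NC cells, a ratio of 1.88 (1.84 to 1.92), while LINC01719 had 45 counts in ASO-1235 cells and 58 in ASO-NC cells, a ratio of 0.928 (0.614 to 1.39).

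**Figure D4:**
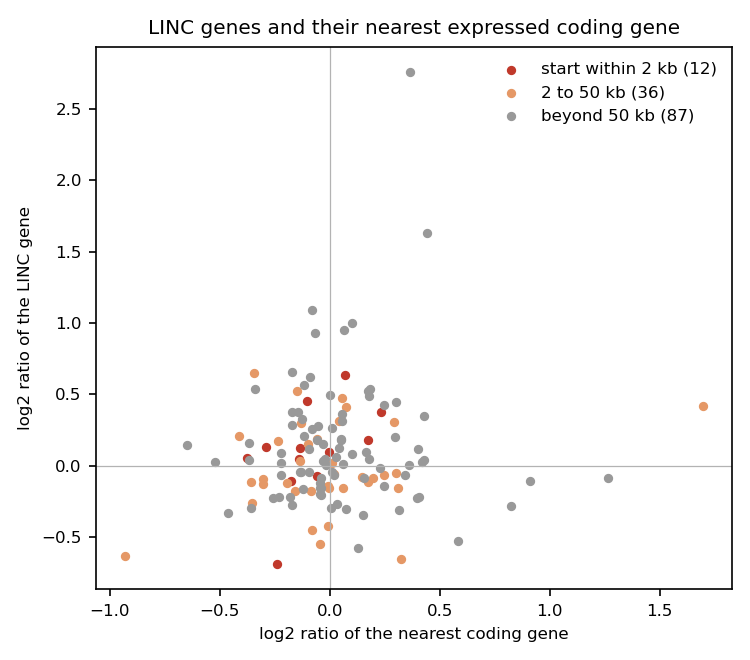
Log2 ratio of ASO-1235 over ASO-NC of the nearest protein-coding gene (x axis) and of the LINC gene (y axis), coloured by the distance between their starts, for 135 LINC genes. Points spread around 0 on both axes, and the highest LINC gene has a neighbour at a ratio of 1.29.

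The GC content of the transcript moved with the ratio, as it did across all genes. In the 45 members of lowest GC content (34.5% to 45.4%) the median log2 ratio was 0.15, in the middle 45 it was 0.01, and in the 45 of highest GC content (52.7% to 64.7%) it was −0.07. All genes within these lowest and highest ranges had medians of 0.15 and −0.16. Spearman's rho between the log2 ratio and GC content was −0.26 over 135 members and −0.49 over 13247 genes. With a trend on GC content and length removed, 4 of the 5 members with 2-fold higher levels were left to assess, LINC03009 having no transcript here, and LINC02035 fell to a log2 ratio of 0.89 while LINC02067, LINC01376 and LINC01503 stood at 1.29 or above. LINC03044, at 1.92-fold before, stood at a log2 ratio of 1.11.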

How the data were processed

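Counts were deposited by the authors as whole numbers for each gene and library, with no sign of scaling in the values. The submitters' processing notes name STAR 2.7.11a, featureCounts 2.0.6 and the build hg38. For strand setting and annotation release, nothing was given in the labels. Lines without a gene and its counts (3) were left out. No other columns were present. The value of 1 cell type marker is not reported here.

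Symbols came from a table of Ensembl IDs. Members and gene lists were chosen with earlier results of these data known. Libraries were scaled with TMM (edgeR 4.0.16, R 4.3.3) on 14352 genes at 1 CPM in at least 1 library, with factors of 1.03 for ASO-1235 and 0.971 for ASO-NC. No test was run. Log2 ratios used a prior count of 0.5. Copies were sought with BLAST 2.17.0, and the trend was fitted on splines with 5 degrees of freedom (statsmodels 0.14.6). Alternatives included DESeq2 1.42.0 size factors.

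Even numbers made up 53.8% of member counts in each library, close to the 53.4% in ASO-1235 cells and 53.9% in ASO-NC cells over all genes with the minimum. Among genes with 1 to 1000 counts they made up 64.0% in ASO-1235 cells and 67.5% in ASO-NC cells. Intervals and floors cover counting error only. Named were LINC01235, the 12 most abundant members, called members with their neighbours, list members and genes at the minimum. Others were named after their values were seen. They included the further members under 1.5-fold, extremes of length and exon number, LINC00205, LINC00886, LINC01719 and their neighbours. The rest were LINC02593, LINC02747, LINC02343, LINC01004, LINC01521, PATZ1, IPO13, KMT2E, AIFM3, ZNF91, ATP5ME, IFI44L, the 1.5-fold calls and those on chromosome 9.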

Additional observations from a re-analysis of the deposited data

How the results depend on the processing

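The count of members at least 2-fold higher, 5 of 143, became 15 of 212 with a minimum of 50 counts. It was 3 of 84 with 200, 1 of 44 with 500, and 3 among the 66 members that overlap no annotated gene. Shares of all genes at these minimums are not given here, but 14.4% of all genes with 30 to 99 counts were called higher. At 1.5-fold 11 members were higher (7.69%, against 4.59% of all genes), and at 3-fold 2 were. The count lower, 0, became 3 of 212 with a minimum of 50. At 1.5-fold it was 3 of 143 (2.10%, against 2.32% of all genes). With another scaling, 4 to 7 were higher and 0 lower, and LINC02035 was the call lost with DESeq2, upper-quartile and all-gene TMM scaling. The median log2 ratio of members lay between −0.0023 and 0.12, and that of LINC01235 against its floor between −8.57 and −8.46. Under total-count scaling the log2 ratio of LINC00665 changed sign to 0.0053, as did those of LINC00174 and LINC00342 (both to 0.04), whose intervals included 1, and LINC01278, LINC01128 and LINC00963 moved beyond their intervals to −0.0015, −0.07 and 0.35. Of 38 named members, 6 moved beyond their interval when the GC and length trend was removed. TMM on all genes and the count without near-identical copies (130 members, 4 higher) were chosen after the data were seen. That count and the one without overlaps also leave out the 8 members not in GENCODE 29, LINC03009 among them, so its call is lost for that reason. No paired analysis was possible because each group holds 1 library. Depth limits the fold of LINC01235, whose ratio could be up to 0.00662 on halved counts.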

Other observations

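LINC genes below the minimum of 100 counts showed more calls, as all genes of that level did. Of 127 with 30 to 99 counts, 21 (16.5%) were at least 2-fold higher in ASO-1235 cells and 9 (7.09%) lower, against 14.4% and 7.23% of the 3278 genes with such counts. On halved counts the intervals of the lower LINC01456, LINC02412, LINC00486, LINC03049 and LINC02235 included 1. So did those of the higher LINC01301, LINC00592, LINC02518, LINC01909, LINC02193, LINC01107, LINC01232 and LINC02150. Shares on halved counts over all genes of that level are not given here. The largest differences were at low counts. LINC01476 had 38 counts in ASO-1235 cells and 0 in ASO-NC cells, and LINC00612 had 42 counts in ASO-1235 cells and 3 in ASO-NC cells, a ratio of 16.7 (5.35 to 84.4). LINC02731 had 60 counts in ASO-1235 cells and 14 in ASO-NC cells, a ratio of 5.12 (2.83 to 9.93). LINC01106 had 40 counts in ASO-1235 cells and 12 in ASO-NC cells, a ratio of 3.99 (2.05 to 8.35). LINC01786 was lower, with 11 counts in ASO-1235 cells and 61 in ASO-NC cells, a ratio of 0.216 (0.102 to 0.413). LINC02826 had 11 counts in ASO-1235 cells and 49 in ASO-NC cells, a ratio of 0.268 (0.126 to 0.523). LINC02718 was also lower, with 9 counts in ASO-1235 cells and 34 in ASO-NC cells, a ratio of 0.317 (0.134 to 0.674). The genes given here with their counts were picked after their values were seen.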
